A study of Mus musculus with 6 samples.

Results

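Transcripts of 10 genes of the YAP/TAZ system were followed in EMT6 cells grown in culture. EMT6 is a mammary carcinoma line of the mouse. The genes were the secreted targets Ccn1 (also Cyr61) and Ccn2 (also Ctgf), the targets Ankrd1, Amotl2, Ajuba, Lats2 and Axl, and the transcriptional regulators Yap1, Wwtr1 and Tead1. They were 10 of the 53465 genes in the table and were found by Ensembl identifier, and all 10 passed the filter on low counts. They were selected on earlier results of these data, in which the measured difference between the 2 groups was known, so their differences between groups are given as a description. Where the fit across all genes passed or missed its threshold for them, that restates what chose them and supports nothing.

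The Hippo pathway is a kinase cascade in which the MST kinases activate the LATS kinases, and these phosphorylate the coactivators YAP (gene Yap1) and TAZ (gene Wwtr1), which are then kept in the cytoplasm or degraded. Unphosphorylated YAP and TAZ enter the nucleus, bind TEAD factors and raise the transcription of genes for adhesion, matrix and growth, among them Ccn1, Ccn2 and Ankrd1. Several targets, such as Amotl2, Ajuba and Lats2, feed back on the pathway, and in mammary carcinoma cells it responds to cell density, matrix stiffness and tension of the cytoskeleton. Because YAP and TAZ are controlled mainly by phosphorylation and location, the amount of Yap1 or Wwtr1 transcript is a measure of supply and not of activity.

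All cells were the same EMT6 line, grown in RPMI medium with fetal bovine serum and an antibody for more than 4 weeks. In the P-VITRO group (3 libraries, titled Parental) the antibody was an isotype control, and in the PTR-VITRO group (3 libraries, labelled as resistant) it was directed against PD-L1, a surface protein that restrains T cells; both were used at 0.5 μg/ml. There were no immune cells in these cultures, and resistance is a name in the labels that was not measured in these data. The labels do not say whether the libraries of a group were separate cultures, and the study calls its replicates technical where nothing else is specified. The SD, SE and p-values here therefore compare libraries and may not cover the variation between cultures.

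Library size was 23417980 to 30115549 counts in P-VITRO and 17757341 to 32426739 in PTR-VITRO. Replicate libraries of a group differed beyond sampling noise (chi-square per degree of freedom 2.59 to 7.52), so no library was counted as a copy of another. The epithelial keratin Krt8 and the mesenchymal filament Vim were abundant in every library, at 1031 to 1128 CPM and 1840 to 1972 CPM (CPM, counts scaled to library size by the upper quartile). The keratin Krt18 had 479.8 to 505.9 CPM in P-VITRO against 523.2 to 567.95 CPM in PTR-VITRO (edgeR adjusted p 0.139), and the epithelial adhesion protein Epcam 1.24 to 1.80 CPM and 2.15 to 2.41 CPM (adjusted p 0.392), so both were higher in PTR-VITRO without overlap but not called, while Krt8 overlapped. The fibroblast proteoglycan Dcn had 35.8 to 46.9 CPM in P-VITRO against 23.8 to 33.2 CPM in PTR-VITRO (edgeR adjusted p 0.092), with Pdgfra at 7.62 to 9.82 CPM and Lum at 0 in all libraries. Of the 4 immune markers, Ptprc was at 0, Cd3e and Cd79a near 0 and Cd68, a lysosomal protein of macrophages and other cells, at 11.3 to 13.2 CPM. Cdh1, Cdh2, Pecam1 and Cdh5 were also at or near 0, and the mesenchymal S100a4 had 367.2 to 407.2 CPM. The part of such marker differences in the results was not tested.

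To show where TEAD factors could meet these genes, the 250 bases before the start site of each gene were read from RefSeq (GRCm38.p6), which gave windows for 8 of the 10 genes. Ccn2 and Tead1 had none. Below are 5 of them, 5′ to 3′ in the direction of the gene, with the TEAD core letters GGAATG, or their reverse complement CATTCC, in capitals. Ccn1 and Ankrd1 are shown as targets with unlike behavior between the groups, Amotl2 and Ajuba as feedback genes and Yap1 as the coactivator itself.
Ccn1, chr3:145649986-145650235, minus strand: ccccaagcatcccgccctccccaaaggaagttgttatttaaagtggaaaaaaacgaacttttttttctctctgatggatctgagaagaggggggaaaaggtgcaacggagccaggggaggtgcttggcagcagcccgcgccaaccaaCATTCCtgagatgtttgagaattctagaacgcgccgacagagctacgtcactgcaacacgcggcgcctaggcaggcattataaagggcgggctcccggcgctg
Ankrd1, chr19:36119845-36120094, minus strand: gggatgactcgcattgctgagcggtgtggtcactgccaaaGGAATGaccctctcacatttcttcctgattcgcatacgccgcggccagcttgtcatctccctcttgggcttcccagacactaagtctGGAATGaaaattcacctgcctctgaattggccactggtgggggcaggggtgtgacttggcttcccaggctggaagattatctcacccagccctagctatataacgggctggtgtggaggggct
Amotl2, chr9:102717554-102717803, plus strand: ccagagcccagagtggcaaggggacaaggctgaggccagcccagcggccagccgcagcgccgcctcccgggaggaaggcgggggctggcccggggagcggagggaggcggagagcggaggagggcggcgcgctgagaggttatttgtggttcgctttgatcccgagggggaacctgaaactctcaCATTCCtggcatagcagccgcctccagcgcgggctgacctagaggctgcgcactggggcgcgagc
Ajuba, chr14:54577662-54577911, minus strand: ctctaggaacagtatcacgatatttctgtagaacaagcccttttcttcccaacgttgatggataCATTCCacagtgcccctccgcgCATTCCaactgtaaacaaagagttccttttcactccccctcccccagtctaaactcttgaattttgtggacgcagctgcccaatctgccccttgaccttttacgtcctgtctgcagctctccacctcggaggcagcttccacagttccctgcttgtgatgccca
Yap1, chr9:8004597-8004846, minus strand: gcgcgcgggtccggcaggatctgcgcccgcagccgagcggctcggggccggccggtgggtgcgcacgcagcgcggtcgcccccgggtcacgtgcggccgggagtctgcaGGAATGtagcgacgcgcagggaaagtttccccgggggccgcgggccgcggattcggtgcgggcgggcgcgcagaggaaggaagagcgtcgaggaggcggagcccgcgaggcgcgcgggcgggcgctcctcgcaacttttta

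The letters GGAATG were found on either strand in 7 of the 8 genes, against 12.6% of all 32851 promoter windows and 14.4% of the 27025 genes with a window. These genes were chosen as known targets or regulators of the pathway, so the match is a description of the windows and does not show binding. In Ccn1 the letters lay 103 to 98 bases before the start, in Amotl2 65 to 60 and in Yap1 141 to 136. Ankrd1 had a pair, at 210 to 205 and 123 to 118, and so did Ajuba, at 186 to 181 and 164 to 159. Axl had GGAATG 233 to 228 bases before its start, and Wwtr1 136 to 131 bases before the outer of its start sites. Lats2 had none in either of its windows, and had a match only when the first 50 transcribed bases were added. The AP-1 letters TGANTCA, searched in the same way because AP-1 factors often sit beside TEAD, occurred in 0 of the 10 windows of these genes and in 6.75% of all windows; no match says only that these letters are not in these windows.

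**Figure D1:**
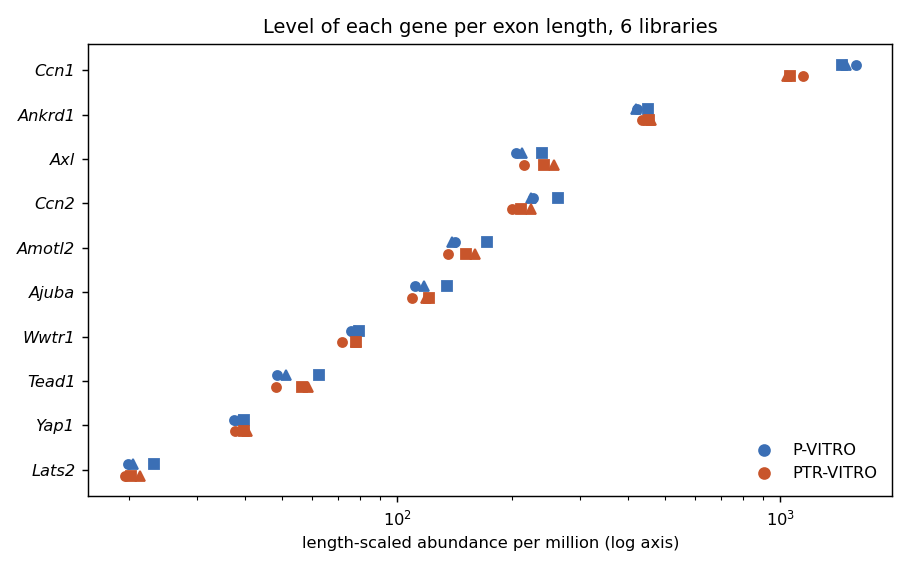
Level of each gene (TPM, scaled for exon length, log axis) in the 3 P-VITRO libraries (blue) and the 3 PTR-VITRO libraries (orange), with the replicate number given by the marker shape. Ccn1 is highest in all 6 libraries and Lats2 lowest, and the points of Axl and Ccn2 share a range.

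Ccn1 was by far the most abundant of the 10 transcripts per length. Levels between genes were compared as TPM, computed here by dividing counts by merged exon length and scaling each library to the same sum. Mean TPM over the 6 libraries was 1293 for Ccn1, 440.1 for Ankrd1, 228 for Axl, 224.6 for Ccn2, 149.9 for Amotl2, 118.8 for Ajuba, 76.8 for Wwtr1, 54.2 for Tead1, 39.03 for Yap1 and 20.7 for Lats2. Each neighbour pair in this order kept its order in 6 of 6 libraries with no overlap of their ranges, except Axl and Ccn2, whose order held in 3 of 6 libraries. Per merged exon length, Wwtr1 was above Yap1 in every library: the TPM ratio of Yap1 to Wwtr1 was 0.494, 0.503 and 0.498 in P-VITRO and 0.524, 0.508 and 0.521 in PTR-VITRO. The groups did not overlap in this ratio, but the lowest PTR-VITRO library and the highest P-VITRO library differed by little. The order of Wwtr1 and Yap1 rests on their merged lengths, 4779 and 9257 bases, which may not be those of the transcripts present. Their mean counts were close, 3583.5 for Wwtr1 and 3526.8 for Yap1. Yap1 had more counts than Wwtr1 in PTR-VITRO replicates 1 and 3, and fewer in the other libraries.

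**Figure D2:**
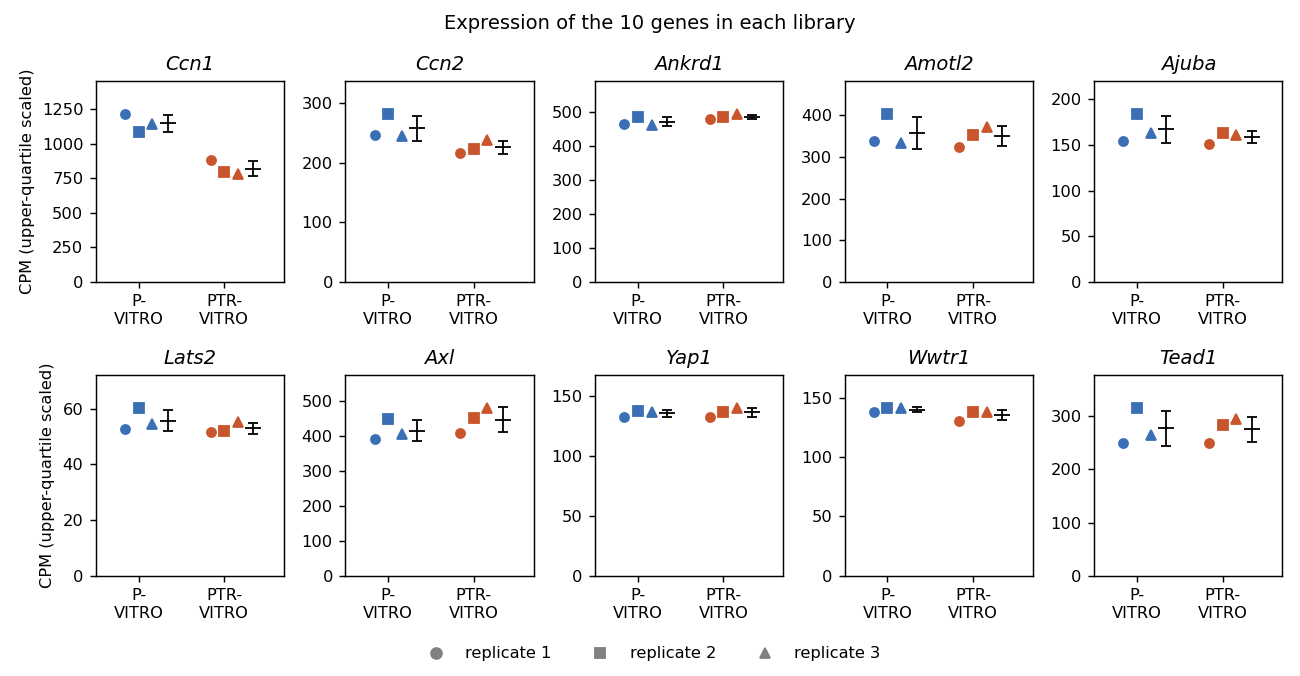
CPM (upper-quartile scaled, axis from 0) of each gene in the P-VITRO libraries (blue) and PTR-VITRO libraries (orange), with the mean and SD of each group in black (n = 3). The 2 groups of points are apart for Ccn1 and, by a small gap, for Ccn2, and overlap for the other 8 genes.

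Ccn1 encodes a secreted matricellular protein that binds integrins and heparan sulfate, and it is an immediate early gene. Its locus is chr3:145646976-145649981 (GRCm38, minus strand, 5 exons after merging of transcripts). It had 1211, 1087 and 1143 CPM in the P-VITRO libraries and 883, 793 and 780 CPM in the PTR-VITRO libraries. Every PTR-VITRO library was below every P-VITRO library, and the gap between the lowest P-VITRO and the highest PTR-VITRO library was wider than the range within either group. The means were 1147 ± 61.9 CPM and 819 ± 55.8 CPM (SD, n = 3 each), and so the level fell by 28.6%. The fitted log2 fold change was -0.49 (SE 0.0517), and it was -0.54 to -0.44 when each library was left out in turn.

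Ccn2 encodes a related matricellular protein that is induced by TGF-β as well as by YAP/TAZ, and lies at chr10:24595442-24598683 on the plus strand. Its levels were 247, 281 and 244 CPM in P-VITRO against 217, 223 and 238 CPM in PTR-VITRO. All PTR-VITRO libraries were again below all P-VITRO libraries, but the highest PTR-VITRO library came close to the lowest P-VITRO library. The means were 257.5 ± 20.4 CPM and 225.7 ± 10.7 CPM (SD, n = 3 each), with a log2 fold change of -0.19 (SE 0.0559). Without P-VITRO replicate 2, the library with the highest level, the log2 fold change was -0.12.

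A noncoding gene, Gm15270, runs antisense to Ccn2 and shares 665 exon bases with it. It had 1.46, 1.74 and 1.49 CPM in P-VITRO against 0.833, 0.918 and 1.07 CPM in PTR-VITRO. Its log2 fold change was -0.76 (SE 0.219, edgeR adjusted p 0.213) at a mean count of only 32.3, and it was not called. The sources do not give the strand setting of RSEM, so reads of the 2 genes cannot be told apart with certainty, although Gm15270 had less than 1% of the counts of Ccn2.

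Ccn1 also had a smaller share of the CCN family transcripts in PTR-VITRO. Of the summed TPM of the 6 CCN genes, Ccn1 made up 74.1%, 69.3% and 73.2% in P-VITRO and 69.2%, 66.1% and 64.9% in PTR-VITRO. Every PTR-VITRO library was below every P-VITRO library, with 69.2% against 69.3% at the nearest point. Ccn1 was chosen with its group difference known, so this order restates that difference. Ccn2 made up 10.7% to 12.6% in P-VITRO and 11.98% to 13.95% in PTR-VITRO, and these ranges overlapped. The TPM ratio of Ccn1 to Ccn2 was 6.95, 5.48 and 6.63 in P-VITRO and 5.77, 5.04 and 4.66 in PTR-VITRO. These ranges overlapped as well, so within single libraries the relation of the 2 genes did not separate the groups.

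Ankrd1, a nuclear ankyrin repeat protein and a standard YAP/TAZ target (chr19:36111961-36120099, minus strand), did not follow Ccn1. It had 463, 485 and 462 CPM in P-VITRO against 479, 484 and 492 CPM in PTR-VITRO. The PTR-VITRO libraries lay inside or just above the range of the P-VITRO libraries. The log2 fold change was 0.04 (SE 0.0328), and it was 0.07 without P-VITRO replicate 2. The TPM ratio of Ccn1 to Ankrd1 was 3.74, 3.20 and 3.54 in P-VITRO and 2.64, 2.35 and 2.27 in PTR-VITRO, with no overlap. The ratio of Ankrd1 to Ccn2 was 1.86, 1.71 and 1.87 in P-VITRO and 2.19, 2.15 and 2.05 in PTR-VITRO, also with no overlap. The genes were chosen with their group differences known, so the separation in these ratios restates those differences.

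Axl, a receptor tyrosine kinase for the ligand Gas6 (chr7:25757273-25788705, minus strand), had 391, 448 and 407 CPM in P-VITRO against 409, 451 and 479 CPM in PTR-VITRO. The groups overlapped, with PTR-VITRO replicate 1 inside the range of P-VITRO. The log2 fold change was 0.10 (SE 0.0612), the highest of the 10 genes, and it ran from 0.05 without PTR-VITRO replicate 3 to 0.16 without PTR-VITRO replicate 1.

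The targets that feed back on the pathway overlapped between the groups. Amotl2, an angiomotin family scaffold that holds YAP at junctions (chr9:102716672-102733418, plus strand), had 338, 402 and 334 CPM in P-VITRO against 325, 353 and 372 CPM in PTR-VITRO. Its log2 fold change was -0.04 (SE 0.0704), and it was 0.06 without P-VITRO replicate 2 and 0.02 without PTR-VITRO replicate 1. Ajuba, a LIM protein that binds LATS kinases (chr14:54567472-54577558, minus strand), had 154, 183 and 164 CPM in P-VITRO against 151, 163 and 161 CPM in PTR-VITRO.

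The log2 fold change of Ajuba was -0.08 (SE 0.0593) and was -0.0034 without P-VITRO replicate 2. Lats2, the LATS kinase that YAP/TAZ induce (chr14:57689662-57758388, minus strand), had 52.5, 60.1 and 54.5 CPM in P-VITRO against 51.6, 52.0 and 55.3 CPM in PTR-VITRO. Its log2 fold change was -0.08 (SE 0.0557) and was -0.02 without P-VITRO replicate 2. Among Amotl2, Ajuba and Lats2, P-VITRO replicate 2 was the highest of the 6 libraries for each of them. A gene model on the same strand, Gm49361, shares 2955 exon bases with Lats2 and had a count of 0 in every library, so RSEM assigned no read of this locus to it.

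The transcripts of the regulators differed little between the groups. Yap1 (chr9:7931999-8004596, minus strand) had 132, 138 and 136 CPM in P-VITRO against 133, 136 and 140 CPM in PTR-VITRO, and its log2 fold change was 0.01 (SE 0.0377, 95% interval -0.08 to 0.09). The sign for Yap1 turned without P-VITRO replicate 1 (-0.0062) and without PTR-VITRO replicate 3 (-0.0073). Wwtr1 (chr3:57455649-57575910, minus strand) had 138, 141 and 141 CPM in P-VITRO against 131, 138 and 138 CPM in PTR-VITRO, with a log2 fold change of -0.05 (SE 0.0382, 95% interval -0.13 to 0.04) that was -0.02 without PTR-VITRO replicate 1. Both had overlapping groups and a coefficient of variation of 1.35% to 3.25% within groups. Tead1, the most abundant of the DNA-binding partners (chr7:112679318-112906807, plus strand), had 251, 315 and 266 CPM in P-VITRO against 250, 283 and 295 CPM in PTR-VITRO.

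Tead1 varied most within groups, with a coefficient of variation of 12.2% in P-VITRO and 8.49% in PTR-VITRO. Its log2 fold change was -0.01 (SE 0.0810) and turned to 0.09 without P-VITRO replicate 2 and 0.06 without PTR-VITRO replicate 1. The TPM ratio of Ccn1 to Yap1 was 42.0, 36.2 and 38.4 in P-VITRO and 30.5, 26.7 and 25.6 in PTR-VITRO. The groups did not overlap in this ratio, which restates the known difference of Ccn1.

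**Figure D3:**
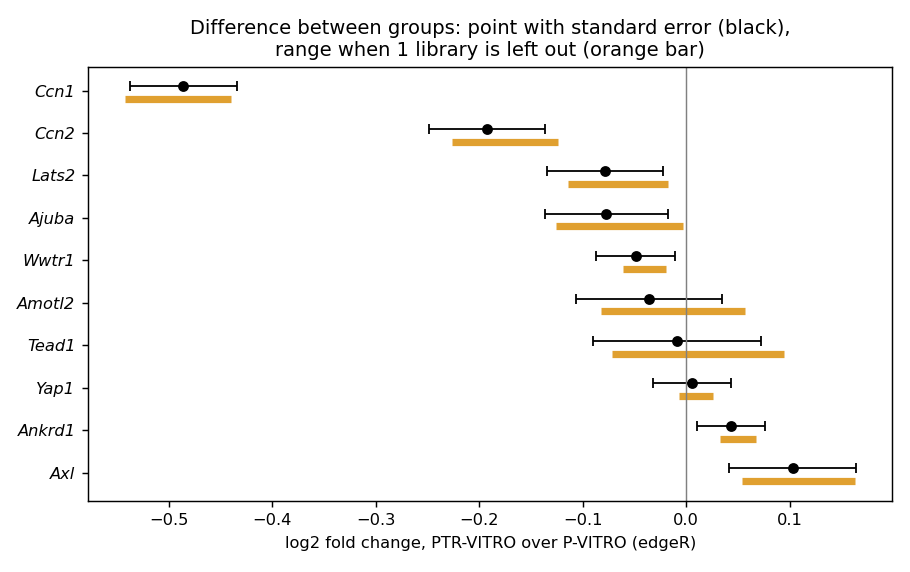
Fitted log2 fold change of each gene, PTR-VITRO over P-VITRO, with its standard error (black point and bar) and the range of the estimate when each of the 6 libraries was left out in turn (orange). Ccn1 stays between -0.54 and -0.44, Ccn2 between -0.23 and -0.12, and the ranges of Amotl2, Tead1 and Yap1 cross 0.

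Across the 10 genes, 7 log2 fold changes were below 0 and 3 above, with a median of -0.04, beside a median of -0.0040 over all 14217 genes tested. In the edgeR fit (adjusted p under 0.05) 1 of the 10 genes was called, and it was Ccn1. Of all genes tested, 0.246% were called, 0.148% as lower and 0.0985% as higher in PTR-VITRO. Groups did not overlap for 2 of the 10 genes, Ccn1 and Ccn2, both lower in PTR-VITRO, and 9.33% of all genes had this pattern. None of the 10 genes was higher without overlap, a pattern of 8.27% of all genes. Since the genes were chosen with this contrast known, nothing is read from these counts. In a pool of cells, fewer cells with a high level and less RNA in each cell cannot be told apart.

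**Figure D4:**
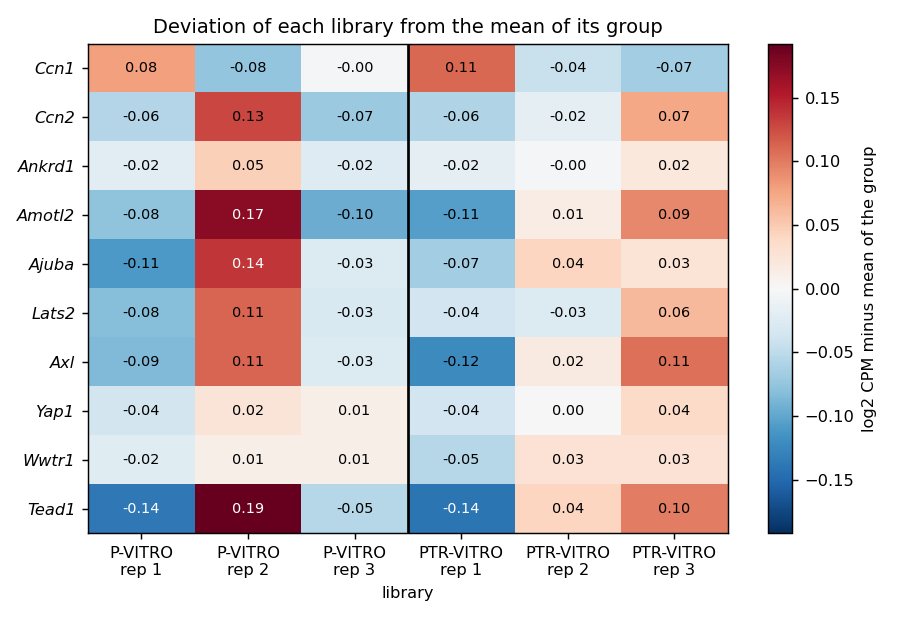
Deviation of each library (columns, P-VITRO to the left of the line and PTR-VITRO to the right) from the mean of its own group for the 10 genes (rows), in log2 CPM with a pseudocount of 0.5; red is above and blue below the group mean. In P-VITRO replicate 2 and PTR-VITRO replicate 3 the 9 genes other than Ccn1 are above their group mean and Ccn1 is below, and in P-VITRO replicate 1 and PTR-VITRO replicate 1 this is turned around.

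A second pattern was read within the groups, apart from the difference between them. After the mean of each group was subtracted, the 9 genes other than Ccn1 correlated positively with each other over the libraries, and Ccn1 correlated negatively with each of them. The pattern was complete in 4 libraries and mixed in the other 2. In P-VITRO replicate 3, Yap1 and Wwtr1 were just above their group mean and the other 8 genes below, Ccn1 included. In PTR-VITRO replicate 2, Ccn2, Ankrd1 and Lats2 were below together with Ccn1, and the other 6 genes above. Pearson's r over the 6 libraries was 0.484 to 0.995 in all 36 pairs of the 9 genes, with a median of 0.886. Each of the 9 genes had an r above 0.9 with 0 (Wwtr1) to 6 (Tead1) of the others. Of all 11805 other genes with a mean count of at least 50, 42.8% to 45.5% had an r above 0 with each of the 9 genes, and 2.80% to 6.89% had an r above 0.9. Ccn2 and Ankrd1 were the closest pair (r = 0.995), and Ankrd1 and Wwtr1 the least close (r = 0.484). Ccn1 had r between -0.963 (Axl) and -0.758 (Ankrd1) with the 9 others. Of all 11805 genes, 55.4% had an r above 0 with Ccn1, and 14.2% had an r below -0.75, a cutoff just above the weakest of the 9 values.

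Ccn1 deviated by 0.08, -0.08 and -0.0032 in P-VITRO and by 0.11, -0.04 and -0.07 in PTR-VITRO on the log2 scale. Tead1 had the widest deviations, 0.19 in P-VITRO replicate 2 and -0.14 in PTR-VITRO replicate 1. P-VITRO replicate 2 held the highest of the 6 values for 6 of the 10 genes, compared with 16.6% of all genes tested. PTR-VITRO replicate 1 held the lowest value for 6 of the 10 genes, compared with 14.9% of all genes.

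The pattern ran along the main axis of variation between replicate libraries. The first principal component of the deviations held 42.0% of their variance over 11806 genes. Its scores were -6.06, 9.70 and -3.65 in P-VITRO and -9.91, 1.33 and 8.57 in PTR-VITRO. Ccn1 had r = -0.94 with it, and the other 9 genes had r from 0.791 (Wwtr1) to 0.995 (Axl). Among all these genes, the r of Ccn1 stood at percentile 5.40 and those of the others at percentiles 86.7 to 99.9. The r values are given as a description of 6 libraries with 4 free values after centring, which share their scaling. Within P-VITRO the scores were in the order of library size, with the deepest library, replicate 2, highest. Within PTR-VITRO they were in the reverse order, with the shallowest library, replicate 3, highest. GC content was taken from the longest annotated transcript of each gene. The correlation across genes between the deviation and this GC content was 0.13 in PTR-VITRO replicate 1, 0.09 in P-VITRO replicate 1 and -0.09 in PTR-VITRO replicate 3, and -0.05 to -0.04 in the others. With the log2 exon length it was -0.06, 0.07 and -0.0077 in P-VITRO and -0.05, 0.02 and 0.03 in PTR-VITRO, and its sign was that of the score in all 6 libraries. The parts of library size, GC content and exon length in the pattern were not tested.

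The genes most like Ccn1 over the 6 libraries, by r of log2 CPM among 11806 genes, were Crtc2, Arhgdia, Fam20a, Chac1 and Dedd (r 0.990 to 0.997). Within groups they were Ttc39a, Aldh9a1, Ppp1r16a, Pgk1 and Bcl9l (r above 0.998). The genes most like Ccn2 over the libraries were Sik2, Helz, Fndc3b, Nat10 and Timm44 (r 0.990 to 0.998), and within groups Cfl2, Sik2, Pkp4, Ccnl1 and Ywhaz (r 0.996 to 0.9985). Sik2 was in both lists of Ccn2. None of these genes was called, and no list for Ccn1 shared a gene with a list for Ccn2.

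**Figure D5:**
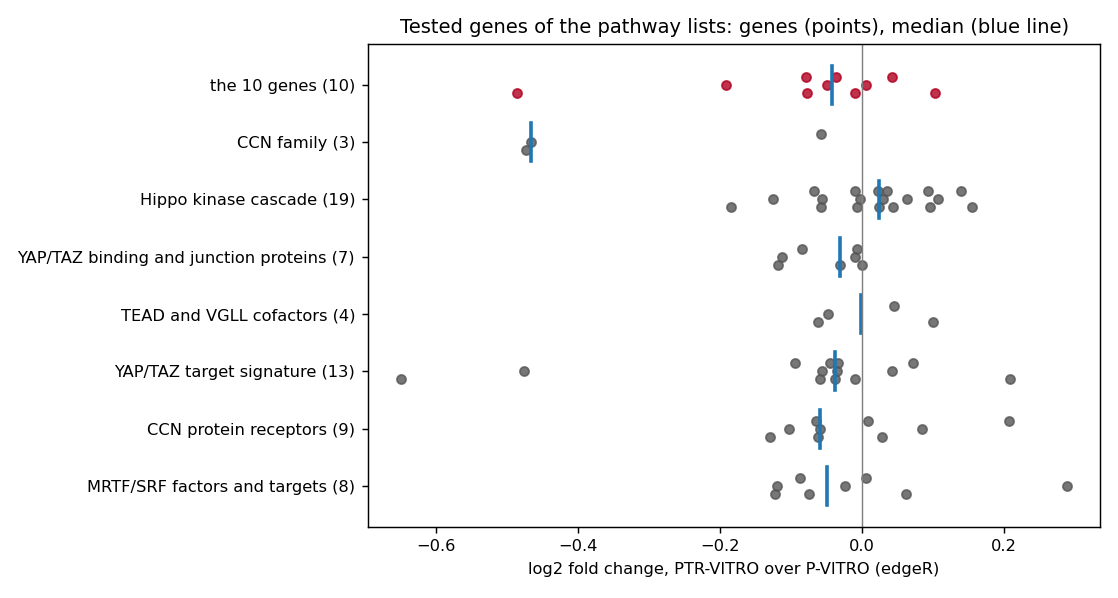
Log2 fold change, PTR-VITRO over P-VITRO, of the 10 genes (red) and of the tested genes of 7 lists (grey), with the median of each row in blue and the number of genes in brackets. Most list genes lie within 0.2 of 0, and the genes farthest to the left are Ccdc80, Ccn1, Tgfb2, Ccn5 and Ccn3.

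The rest of the pathway was read from 7 lists of 73 genes, of which 63 were tested. With edgeR 0 of the 63 were called, and 15 had an unadjusted p under 0.05, 5 higher and 10 lower in PTR-VITRO. Of all 14217 genes, 1620 had such a p, 748 higher and 872 lower, which is 11.4%. DESeq2 called 2 of them, Ccdc80 and Tgfb2, and limma-voom 0. The median log2 fold change was -0.03, beside -0.0040 for all genes. Of the 63 genes, 39 were below 0 and 24 above.

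Of the other CCN genes, Ccn4 (also Wisp1), a target of WNT signaling, was abundant, with 696.7 ± 58.3 CPM in P-VITRO against 669.9 ± 21.1 CPM in PTR-VITRO (log2 fold change -0.06, edgeR adjusted p 0.726). Ccn5, which lacks the C-terminal domain of its relatives, had 5.89 ± 0.506 CPM and 4.14 ± 0.930 CPM. Its log2 fold change was -0.47 (SE 0.160, edgeR adjusted p 0.289), and of the settings tried it was called only with no filter on low counts. Ccn3 was near the detection limit, at 0.669 ± 0.0428 CPM and 0.487 ± 0.179 CPM (edgeR adjusted p 0.644), and Ccn6 was not tested. The 3 tested genes all had fold changes below 0, with a median of -0.47 on the log2 scale, and 0 were called.

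In the Hippo kinase cascade, 0 of 19 tested genes were called, and their median log2 fold change was 0.02. The list had 5 genes at an unadjusted p under 0.05, in both directions. The higher were the MST kinase Stk4 (log2 fold change 0.14, edgeR adjusted p 0.292), the LATS-activating kinase Map4k5 (0.16, adjusted p 0.255) and the scaffold Wwc1, known as KIBRA (0.10, adjusted p 0.424). The lower were its relative Wwc2 (-0.13, adjusted p 0.276) and the kinase Taok2 (-0.18, adjusted p 0.266). Lats1, the other LATS kinase, had 78.4 ± 4.26 CPM and 79.9 ± 3.88 CPM, and the upstream tumor suppressor Nf2 had 145.6 ± 9.27 CPM and 138.5 ± 14.9 CPM. The most abundant per length were the FERM protein Frmd6, at 153 TPM, and the kinase Map4k4, at 144 TPM, with log2 fold changes of 0.04 and -0.0032.

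Among the proteins that bind YAP/TAZ or junctions, 0 of 7 were called, with a median of -0.03. The angiomotin Amotl1 had 210.1 ± 5.78 CPM and 193.6 ± 1.04 CPM (log2 fold change -0.12, edgeR adjusted p 0.224). The casein kinase Csnk1d, which phosphorylates YAP on its way to degradation, was at -0.08 on the log2 scale (adjusted p 0.423) and the highest level per length of this list, 78.0 TPM. Csnk1e followed with 62.5 TPM and a log2 fold change of 2.0e-04. Of the TEAD and VGLL genes, 4 of 7 were tested and 0 called, and none had an unadjusted p under 0.05. Tead4 had 19.1 TPM and Vgll4, a competitor of YAP for TEAD, 12.8 TPM. Tead2 and Tead3 had 6.94 TPM and 7.63 TPM, while Tead1 had 54.2 TPM, so that Tead1 was the main TEAD transcript in these cells. Vgll1 and Vgll2 had a count of 0 in all libraries.

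The widest differences in the lists were in the further YAP/TAZ target signature, where 0 of 13 tested genes were called by edgeR, with a median log2 fold change of -0.04. Tgfb2, a TGF-β ligand, had 12.6 ± 1.10 CPM in P-VITRO against 9.07 ± 0.292 CPM in PTR-VITRO (-0.48 on the log2 scale with SE 0.0882, edgeR adjusted p 0.0585). Ccdc80, a secreted matrix protein, had 9.75 ± 1.28 CPM and 6.10 ± 1.14 CPM (-0.65 on the log2 scale with SE 0.143, edgeR adjusted p 0.111). DESeq2 called both, and the edgeR fits with no filter on low counts called both as well. Leaving out PTR-VITRO replicate 1 led to a call for Ccdc80.

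Other targets of that signature lay close to 0 or above it. Gadd45a, a stress-induced growth arrest gene, was the most abundant per length, with 979 TPM and 0.04 as its log2 fold change (edgeR adjusted p 0.764). Nt5e, the ectonucleotidase CD73, followed with 148 TPM and -0.06 on the log2 scale (adjusted p 0.555). Nuak2, a kinase that in turn promotes YAP, stood at 0.21 on the log2 scale (adjusted p 0.242). Igfbp3 and Fjx1 had a count of 0 in all libraries. The TEAD letters were found in the windows of 2 of the 10 genes of this signature with a window, Crim1 and Ptpn14, beside 14.4% of all genes. The other lists had 4 of 6 genes with the letters (TEAD and VGLL), 3 of 8 (MRTF/SRF), 3 of 17 (Hippo kinases), 1 of 4 (binding and junction proteins), 1 of 7 (CCN receptors) and 0 of 1 (CCN family), which made 14 of 53 (26.4%) for the 7 lists together.

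Transcripts for the receptors of CCN proteins were present throughout, and 0 of 9 were called. Itgb1, the shared integrin beta chain, had 476 TPM and -0.06 as its log2 fold change (edgeR adjusted p 0.536), and the syndecan Sdc4 had 304 TPM and 0.01 (adjusted p 0.973). The integrin chains Itgb5 (-0.13, adjusted p 0.273), Itga5 (-0.10, adjusted p 0.380) and Itgb3 (0.21, adjusted p 0.390) had unadjusted p under 0.05, and so 2 of these 3 were below 0. Itgb3 was scarce, at 5.32 TPM, compared with 253 TPM for Itgb5. Itgam, a leukocyte integrin chain, was close to 0.

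Serum response factor and its cofactors MRTF share Ccn1 and Ccn2 as targets with YAP/TAZ, and 0 of the 8 tested genes of that list were called. Srf itself had 74.3 ± 3.52 CPM in P-VITRO against 68.3 ± 0.253 CPM in PTR-VITRO (log2 fold change -0.12, edgeR adjusted p 0.306). For its cofactor Mrtfa the log2 fold change was -0.07 (adjusted p 0.575). The LIM protein Fhl2 (185 TPM) and the adhesion protein Vcl (108 TPM) were the most abundant per length, with log2 fold changes of 0.06 and -0.02. The median of this list was -0.05, and 5 of its 8 genes were below 0.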

How the data were processed

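RNA of 6 EMT6 samples (3 P-VITRO, 3 PTR-VITRO) was sequenced as stranded poly(A) libraries. Estimated counts per gene (expected counts of RSEM, not whole numbers) were deposited, which the authors made with FastQC 0.11.5, STAR 2.6.0a and RSEM 1.3.1 on GRCm38; they are not scaled between libraries. The strand setting is not given in the sources used here.

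Estimated counts were rounded. Genes were filtered with filterByExpr (minimum count 10, minimum total 15), scaled by the upper quartile and tested by quasi-likelihood in edgeR 4.0.16 (R 4.3.3) on group alone, with Benjamini-Hochberg adjustment over all 14217 genes tested (threshold 0.05). Standard errors were derived from the F statistic. TPM used merged exon lengths of a GENCODE annotation of GRCm38, which named 9 of the 10 members with the same identifier version. Within-group values used log2 CPM with a pseudocount of 0.5. Copies were searched with BLAST 2.17.0 (at least 95% identity over 200 bases), and Gm15270 and Gm49361 were the matches. The fits with edgeR, limma-voom and DESeq2 were run on simulated counts, where edgeR was required only to find changes much larger than those of the 10 genes. The other steps, such as TPM, ratios, within-group values and motifs, were not simulated.

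The members and lists were chosen with earlier results of these data known. Genes named are the 10 members, any called list gene, the 2 most abundant and the 2 with the smallest p of each list, and the 5 most like Ccn1 and Ccn2. Others (Lats1, Nf2, Wwc1, Wwc2, Stk4, Ccn6, Itgb3, Nuak2, Crim1, Ptpn14 and genes at or near 0) complete a count or a pathway step and were named after their values were seen. Alternatives were TMM or no scaling, DESeq2 1.42.0, limma-voom (limma 3.58.1), no filter, a filter of 10 counts in every library, the replicate number as a block, a longer promoter window, and leaving out each library.

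The SD, SE and intervals include the spread between libraries as well as counting error. Library size was 17757341 to 32426739 counts.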

Additional observations from a re-analysis of the deposited data

How the results depend on the processing

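The log2 fold changes of the 10 genes were recomputed under 7 other settings and without each library. Of the 70 values under other settings, 68 had the same sign and the same call as in the text. Ccn2 was called with no filter on low counts (-0.19), so that 2 of the 10 genes were called there, and Tead1 was above 0 without a scaling factor (0.0037). Of the 60 values without 1 library, 54 had the same sign and call. Without 1 library, Amotl2 ranged from -0.0822 to 0.0569 (0.0569 without P-VITRO replicate 2, 0.0173 without PTR-VITRO replicate 1), Tead1 from -0.0712 to 0.0944 (0.0944 and 0.0602 without the same libraries) and Yap1 from -0.0073 to 0.0258 (-0.0062 without P-VITRO replicate 1, -0.0073 without PTR-VITRO replicate 3). The median over all genes stayed between -0.0109 and 0.0084.

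Over all genes, 35 were called in the fit described in the text, 111 by DESeq2, 400 with no filter on low counts, 54 with at least 10 counts in every library and 8 to 64 without 1 library (8, 12 and 46 without PTR-VITRO replicates 3, 2 and 1, and 9, 11 and 64 without P-VITRO replicates 3, 1 and 2). In the target signature the calls were 2 by DESeq2, 2 with no filter and 0 to 1 without 1 library, and in the other CCN genes 1 with no filter (Ccn5); no gene of the other 5 lists was called under any setting tried. The cause of these shifts was not tested. With the replicate number as a replicate block, 68 genes were called over all genes and 1 in the target signature (Ccdc80), and no call among the 10 genes changed. Same-numbered libraries deviated with r of 0.18, 0.09 and -0.04, not over 0.1 in every pair, and were therefore not treated as pairs. The libraries numbered 1 were each other's best match, and so were P-VITRO replicate 2 and PTR-VITRO replicate 3, which differ in number. P-VITRO replicate 3 and PTR-VITRO replicate 2 had no such mutual match. A shared batch was not tested. The TEAD letters were in 8 of 10 windows, and in 9 with the longer window. With 3 libraries a group, Ccn2 and the other 8 genes were not called by edgeR with the filter, which does not show that they are equal.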
